A study of Drosophila melanogaster with 8 samples.

Results

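The genes of serotonin synthesis, transport and reception were followed in sorted cells of the adult Drosophila central brain. They are 7 of the 17137 reference genes listed in every library, and were taken by symbol: the presynaptic genes Trh and SerT and the receptor genes 5-HT1A, 5-HT1B, 5-HT2A, 5-HT2B and 5-HT7. The rule names genes and uses no level. All 7 passed the filter on low values, a level of at least 1 TPM in at least 2 of the 8 libraries, which left 10111 genes tested. TPM, a share of all transcripts, is scaled for transcript length and for the size of the library, so that levels of different genes can be set side by side.

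Serotonin (5-hydroxytryptamine, 5-HT) is made from tryptophan by neurons that express Trh, the neuronal tryptophan hydroxylase and the rate-limiting enzyme of the pathway, and then Ddc, an aromatic amino acid decarboxylase also used for dopamine. It is loaded into vesicles by Vmat, released, and taken back up by SerT, the plasma membrane serotonin transporter, so that Trh and SerT together mark serotonergic neurons. Its receptors sit mostly on other neurons, are all coupled to G proteins in the fly, and act by lowering cAMP (5-HT1A, 5-HT1B), by raising it (5-HT7) or through phospholipase C and calcium (5-HT2A, 5-HT2B). Serotonin is known in flies for roles in sleep, feeding, aggression and memory.

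The 4 populations compared were male fru+ cells, female fru+ cells, male fru- cells and female fru- cells, with 2 libraries each and 8 in all. All flies were of the w1118 strain and aged 2 to 7 days. They carried UAS-mCD8-GFP over MB247-Gal80, and Fru-GAL4 over a wild-type or balancer chromosome, for which the paper gives TM2 or TM6B. The fru- cells thus came from the same brains as the fru+ cells and bore the same transgenes. The fru+ cells were those that glowed with the membrane GFP that fruP1-Gal4 switches on where the P1 promoter of fruitless is active, and only males make the Fru-M protein from it. MB247-Gal80 silenced the driver in mushroom body Kenyon cells, which therefore fell among the fru- cells. Optic lobes were removed, brains of many flies were pooled for each library, and a replicate number stands for a sort session in which cells of both sexes were collected.

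The libraries held 3.16 to 4.93 Gb of aligned sequence. No counts of reads were used, so single values carry no counting interval. The lowest mean read depth over a gene was 3.53 reads per base for 5-HT2A, and the highest was 611 for Trh, so 5-HT2A is the least well measured of the 7. fru itself, the gene that defines the sort, had 56.2 and 63.1 TPM in male fru+ and 71.6 and 61.0 TPM in female fru+ libraries, against 8.19 and 7.39 TPM in male fru- and 3.75 and 15.1 TPM in female fru- libraries. The female fru- library of replicate 2 thus held the most fru of the fru- libraries. The summed level of 4 neuronal markers (nSyb, elav, Syt1, brp) was 2081 to 3262 TPM in fru+ libraries and 1838 to 3279 TPM in fru- libraries. The summed level of 5 glial markers (repo, moody, alrm, Gs2, nrv2) was 480 to 772 TPM in fru+ libraries and 883 to 2241 TPM in fru- libraries, with none of the 5 at 0, although the cells are labelled as neurons. The summed level of 4 Kenyon cell markers (ey, prt, trio, mub) was 107 to 184 TPM in fru+ libraries and 188 to 396 TPM in fru- libraries. The sums of the glial and of the Kenyon cell markers thus did not overlap between fru+ and fru- libraries. Among single markers alrm, nrv2, ey and prt did not overlap either, and the other 5 did. Of 5 fat body markers the sum was at most 19.0 TPM, with Lsp2 and Yp1 at 0 in some libraries, and of 3 hemocyte markers at most 2.08 TPM, with NimC1 and Sr-CI at 0 in some.

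**Figure D1:**
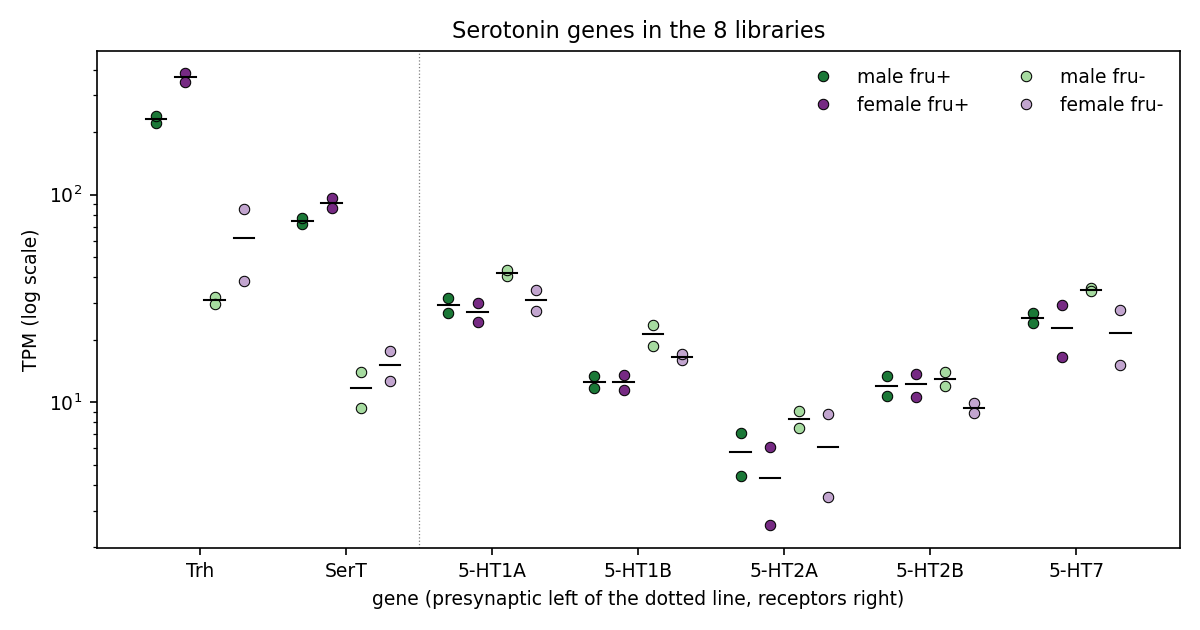
TPM on a log scale of the 7 serotonin genes in each library, with a point for each of the 2 libraries of a group and a bar at the group mean. Trh and SerT stand higher in all 4 fru+ libraries than in all 4 fru- libraries, while of the receptors only 5-HT1B separates them, lower in fru+.

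Trh was the most abundant of the 7 genes in fru+ cells. On dm6 it spans 1190384 to 1193173 on the minus strand of 3L, with a single annotated transcript and 2.18 kb of exonic sequence, and the annotation lists it as Trhn. It stood at 221 and 239 TPM in male fru+ and 383 and 349 TPM in female fru+ cells, against 32.2 and 29.7 TPM in male fru- and 38.3 and 84.7 TPM in female fru- cells. All 4 fru+ libraries were above all 4 fru- libraries, and the spread among fru- libraries came mostly from 84.7 TPM in female fru- replicate 2, the library with the most fru. In bulk RNA of this kind, more cells that express a gene and more of its RNA per cell cannot be told apart.

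SerT had the same arrangement of libraries at a lower level. It spans 24404595 to 24411074 on the minus strand of 2R, with 3 annotated transcripts. There were 71.9 and 77.1 TPM in male fru+ and 96.0 and 86.1 TPM in female fru+ cells, against 14.0 and 9.39 TPM in male fru- and 12.7 and 17.7 TPM in female fru- cells. Again no fru- library reached the lowest fru+ library. The highest level within the fru+ libraries was 1.34 times the lowest for SerT and 1.73 times for Trh.

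To ask which of the 7 genes differed with fru status, the groups were compared with limma on log2(TPM + 1), a scale on which changes of low genes come out too small, with Benjamini-Hochberg adjustment over all 10111 genes and a call at an adjusted p under 0.05. In males 2 of 7 members were called, Trh and SerT, both higher in fru+ cells, where 0.307% of all tested genes were called higher and 0.514% were called in either direction. In females the same 2 members were called, both higher, where 0.297% of tested genes were called higher and 0.653% in either direction. Averaged over the sexes, Trh and SerT were again called higher and no member was called lower, against 5.29% of all tested genes called, 1.49% higher and 3.8% lower. The median log2 fold change of all tested genes was -0.14 in males, -0.11 in females and -0.12 averaged over the sexes, so the typical gene was slightly lower in fru+ cells.

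Trh was 7.23-fold higher in males, with a log2 fold change of 2.85 (SE 0.30, limma adjusted p = 0.00365). In females it was 6.32-fold higher, a log2 fold change of 2.66 (SE 0.30, limma adjusted p = 0.00751). Within sort sessions the male values were 2.74 and 2.97 and the female values 3.29 and 2.03, so Trh was higher in all 4 matched pairs of libraries, least so in the pair that held female fru- replicate 2. Without that library the female log2 fold change of Trh was 3.22. The averaged log2 fold change was 2.76, with a 95% interval of 2.28 to 3.23 (limma adjusted p = 0.00024), and 2.88 relative to the median gene.

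SerT was 6.05-fold higher in male fru+ than in male fru- cells, with a log2 fold change of 2.60 (SE 0.25, limma adjusted p = 0.00293). The female fold was 5.75, with a log2 fold change of 2.52 (SE 0.25, limma adjusted p = 0.00474). The session values were 2.28 and 2.91 in males and 2.82 and 2.22 in females, and none of the 4 pairs reversed. Averaged over the sexes, the log2 fold change of SerT was 2.56, with a 95% interval of 2.16 to 2.96 (limma adjusted p = 0.000168), and 2.68 relative to the median gene.

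The calls made within a sex rested on few libraries, and a group left with a single library was assumed to vary like the other groups. In males the Trh call was lost when any of the 4 male libraries was left out, at limma adjusted p between 0.0547 and 0.0755 and log2 fold changes between 2.80 and 2.91, and the SerT call was lost without male fru+ replicate 2 (adjusted p = 0.0591). In females the Trh call was lost without female fru+ replicate 1 (adjusted p = 0.0523) or replicate 2 (0.0733), and the SerT call without female fru+ replicate 2 (0.0508). Over the alternatives tried, limma adjusted p ran from 2.2e-05 to 0.109 for Trh and from 0.00058 to 0.0591 for SerT in males, and from 6.6e-05 to 0.126 for Trh and from 0.0014 to 0.0834 for SerT in females. The averaged comparison, which draws on all 8 libraries, kept both calls under every alternative that could be fitted, with adjusted p of at most 0.0377 for Trh and 0.0210 for SerT. The lower glial and Kenyon cell marker levels of the fru+ libraries moved with these results, and their part in them was not tested.

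Trh overlaps CG13912, a gene on the opposite strand, over 89 exonic bases, and the libraries were unstranded. CG13912 stood at 0.317 to 1.02 TPM in fru+ libraries and 0.180 to 0.669 TPM in fru- libraries, far below Trh. The transcription factor gene trh (trachealess), whose symbol differs only in its first letter, is a separate gene and was kept apart. Its level was 6.10 to 7.69 TPM in fru+ libraries and 1.45 to 2.38 TPM in fru- libraries.

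None of the 5 receptors was called in males, in females or averaged over the sexes by limma, and at an unadjusted p under 0.05 there were 2 of 5 in males, 0 in females and 1 averaged over the sexes, where 13.4%, 14.7% and 23.5% of all tested genes passed that mark. Over all tested genes 0.208% were called lower in males and 0.356% in females. Within a sex, separation of 2 libraries from 2 was common. In males 5-HT1A, 5-HT1B, 5-HT2A and 5-HT7 lay lower in both fru+ libraries, as did 34.1% of tested genes, and Trh and SerT higher, as did 15%. In females Trh, SerT and 5-HT2B lay higher in both fru+ libraries, as did 14.1% of tested genes. 5-HT1B lay lower in both female fru+ libraries, a direction whose share over all tested genes was not computed in females.

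5-HT1A, a receptor that lowers cAMP, was the most abundant receptor in each of the 4 groups. It spans 19067155 to 19121958 on the plus strand of 2R. It stood at 31.6 and 27.0 TPM in male fru+ and 30.0 and 24.4 TPM in female fru+ cells, against 40.5 and 43.5 TPM in male fru- and 27.6 and 34.8 TPM in female fru- cells. The female groups overlapped. In males the log2 fold change was -0.51 (limma adjusted p = 0.371), in females it was -0.19 (0.737), and neither passed.

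5-HT1B, the other receptor that lowers cAMP, lies on the minus strand of 2R at 19022325 to 19032642. It had 13.4 and 11.7 TPM in male fru+ and 13.5 and 11.4 TPM in female fru+ cells, against 18.7 and 23.6 TPM in male fru- and 15.9 and 17.1 TPM in female fru- cells. The 4 fru+ libraries lay below the 4 fru- libraries, the only receptor for which this held, and 11.6% of tested genes showed the same arrangement. Trh and SerT lay without overlap on the high side, as did 3.97% of tested genes. The averaged log2 fold change of 5-HT1B was -0.54 (95% interval -0.95 to -0.14), or -0.42 relative to the median gene, and did not pass after adjustment (limma adjusted p = 0.114). Its adjusted p ran from 0.0530 to 0.312 over the alternatives, and the lowest came from loci assembled from the reads, with a log2 fold change of -1.10. In 2 fru- libraries, male replicate 1 and female replicate 1, those loci stood at 35.2 and 43.7 TPM, against 18.7 and 15.9 TPM in the reference rows. The first ran on to 19058540 and the second began at 18982481, both outside the gene, so they may count reads from beyond 5-HT1B. In female fru- replicate 2 the locus also reached beyond the gene, from 18952592, at 16.9 TPM against 17.1 TPM in the reference row.

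5-HT7, the receptor that raises cAMP, spans 30968236 to 31016875 on the minus strand of 3R. Its levels were 26.9 and 24.0 TPM in male fru+ and 29.2 and 16.5 TPM in female fru+ cells, against 35.4 and 34.2 TPM in male fru- and 15.1 and 27.7 TPM in female fru- cells. The female groups overlapped. The female sessions went in opposite directions, with log2 fold changes of 0.91 and -0.72, and the averaged value was -0.17 (95% interval -0.70 to 0.36, limma adjusted p = 0.705). In female fru- replicate 1 the assembled locus held 27.4 TPM, against 15.1 TPM in the reference row. That locus began at 30907392, outside the gene, so it may count reads from beyond 5-HT7. The female value changed sign with assembled loci and without female fru+ or female fru- replicate 1.

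5-HT2B, which signals through phospholipase C, lies on the plus strand of 3R at 8578205 to 8629996. It had 13.4 and 10.7 TPM in male fru+ and 13.7 and 10.6 TPM in female fru+ cells, against 11.9 and 13.9 TPM in male fru- and 9.88 and 8.87 TPM in female fru- cells. The male groups overlapped. Its averaged log2 fold change of 0.12 was the only positive one among the receptors (95% interval -0.33 to 0.56, limma adjusted p = 0.767), and the male value of -0.10 turned positive under median-of-ratios scaling, with FPKM, with assembled loci and without male fru+ replicate 2. Loci assembled from the reads put 5-HT2B at 17.3 to 24.2 TPM, 1.60 to 2.22 times its reference rows, and above 5-HT1B in fru+ cells. That value sums every assembled locus on its strand that overlaps its span, 1 to 4 in a library. The noncoding gene lncRNA:CR46124 lies there on the same strand, with 0 shared exonic bases, so the sum may count other transcripts.

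5-HT2A was the least abundant of the 7 genes in all 4 groups. It spans 4612870 to 4633304 on the plus strand of 3R and had 7.13 and 4.41 TPM in male fru+ and 6.05 and 2.55 TPM in female fru+ cells, against 9.10 and 7.52 TPM in male fru- and 8.72 and 3.50 TPM in female fru- cells. On these reference rows libraries of a group differed widely, and the female groups overlapped. The averaged log2 fold change was -0.44, with the widest interval of the 7 members, -1.19 to 0.30 (limma adjusted p = 0.456). Loci assembled from the reads put 5-HT2A at 5.61 to 14.9 TPM in the 8 libraries, above its reference rows in each. They differed little among fru+ libraries, at 7.79 and 7.26 TPM in males and 8.74 and 7.02 TPM in females. Female fru- libraries still differed widely on them, at 14.9 and 5.61 TPM.

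**Figure D2:**
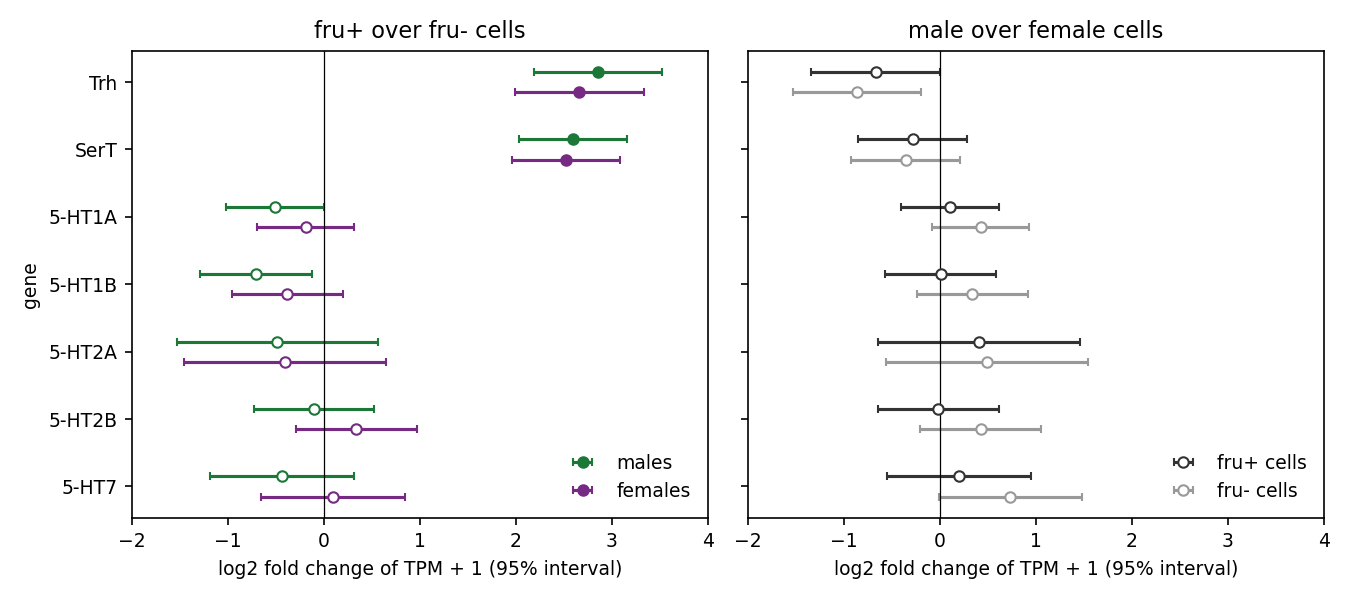
Log2 fold changes on log2(TPM + 1) with 95% intervals from limma for the 7 serotonin genes, fru+ over fru- cells in each sex (left) and male over female cells at each fru status (right). Filled points have an adjusted p under 0.05, which only Trh and SerT reach, and only with fru status.

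The presynaptic genes and the receptors were then set against each other. The averaged log2 fold changes had a median of 2.66 over Trh and SerT and of -0.35 over the 5 receptors, beside -0.12 over all tested genes, a gap of 3.01 between presynaptic genes and receptors. Within the 4 matched pairs of libraries the gap was 2.86 and 3.59 in males and 2.94 and 2.63 in females (SD 0.41). Male and female pairs share sort sessions, so the 4 values are not independent and their SD is only a description. The gap ran from 2.84 to 3.12 when each library was left out in turn.

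On the TPM scale, Trh and SerT summed to 293 and 316 in male fru+ and 479 and 435 in female fru+ cells, against 46.2 and 39.1 in male fru- and 51.0 and 102 in female fru- cells. The 5 receptors summed to 92.4 and 77.7 TPM in male fru+ and 92.5 and 65.4 TPM in female fru+ cells, against 116 and 123 TPM in male fru- and 77.2 and 92.0 TPM in female fru- cells. Presynaptic transcripts outnumbered receptor transcripts 3.17 and 4.06 times in male fru+ and 5.18 and 6.66 times in female fru+ cells, while the ratio was 0.399 and 0.319 in male fru- and 0.661 and 1.11 in female fru- cells. On these reference rows, only female fru- replicate 2 brought a fru- ratio above 1. In that library the assembled loci of 5-HT2B stood at 19.7 TPM, against 8.87 TPM in the reference row. Ratios on assembled loci were not computed.

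The order of levels changed accordingly. In male fru+ cells it ran Trh (230 ± 12.4 TPM, SD, n = 2), SerT (74.5 ± 3.69), 5-HT1A (29.3 ± 3.28), 5-HT7 (25.5 ± 2.04), 5-HT1B (12.5 ± 1.19), 5-HT2B (12.0 ± 1.91) and 5-HT2A (5.77 ± 1.92), and only 5-HT1B and 5-HT2B overlapped their neighbour. Female fru+ cells had the same order, led by Trh at 366 ± 24.1 TPM and SerT at 91.0 ± 6.96 TPM, with 5-HT1A and 5-HT7 also overlapping. In male fru- cells 5-HT1A (42.0 ± 2.08 TPM) and 5-HT7 (34.8 ± 0.884) stood above Trh (31.0 ± 1.78), and SerT (11.7 ± 3.23) overlapped 5-HT2B near the bottom. In female fru- cells Trh led at 61.5 ± 32.8 TPM, and 5-HT1A, 5-HT7 and 5-HT1B each overlapped the gene next in order, which for 5-HT1B was SerT.

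The proportions within each set were then compared. There were 3.08 and 3.10 Trh transcripts for each SerT transcript in male fru+ and 4.0 and 4.06 in female fru+ cells, against 2.31 and 3.16 in male fru- and 3.02 and 4.80 in female fru- cells, so fru+ and fru- libraries overlapped. 5-HT1A made up 32.5 to 37.3% of receptor TPM in fru+ libraries and 35.0 to 37.9% in fru- libraries. The share of 5-HT1B was 14.5 to 17.4% in fru+ libraries and 16.2 to 20.6% in fru- libraries, and that of 5-HT2B 13.7 to 16.2% in fru+ and 9.65 to 12.8% in fru- libraries. The share of 5-HT7 was 25.2 to 31.6% in fru+ and 19.6 to 30.6% in fru- libraries, and that of 5-HT2A 3.90 to 7.72% in fru+ and 3.81 to 11.3% in fru- libraries. The 5-HT2B share alone did not overlap on these reference rows. On assembled loci the 5-HT1B share did not overlap either, at 12.6 to 14.0% in fru+ and 16.1 to 33.4% in fru- libraries. Some of those loci reached beyond the gene in fru- libraries, where they held 0.992 to 2.75 times the TPM of the reference rows, against 0.996 to 1.035 times in fru+ libraries. The fru- shares may thus count reads from outside 5-HT1B.

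**Figure D3:**
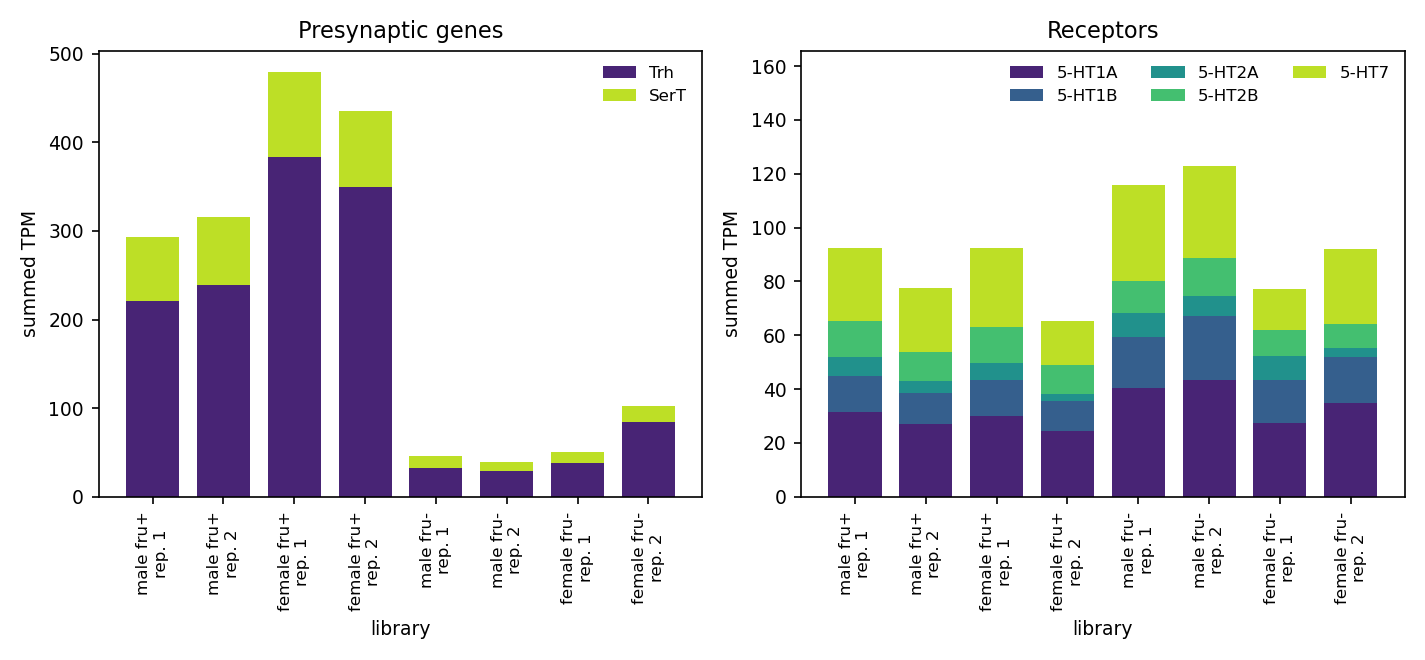
Summed TPM of the presynaptic genes Trh and SerT (left) and of the 5 serotonin receptors (right) in each library, stacked by gene. The presynaptic sum is 293 to 479 TPM in fru+ libraries and 39.1 to 102 TPM in fru- libraries, while the receptor sums, 65.4 to 92.5 TPM and 77.2 to 123 TPM, overlap.

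Male and female cells were then compared at each fru status. Between male fru+ and female fru+ cells, sex and Fru-M differ together, so this comparison alone cannot tell them apart. The make-up of the sorted pools may differ as well. No member was called between male fru+ and female fru+ cells, where limma called 0.089% of tested genes, and none had an unadjusted p under 0.05, as 4.24% of tested genes did. Trh came nearest, with a log2 fold change of -0.67, that is lower in males (95% interval -1.34 to 0.00, limma adjusted p = 1.00). Both male fru+ libraries were below both female fru+ libraries for Trh and for SerT, whose log2 fold change was -0.28 (95% interval -0.85 to 0.28), and 12.6% of tested genes lay lower in both male fru+ libraries. The 5 receptors lay between -0.01 for 5-HT2B and 0.41 for 5-HT2A, with intervals that all included 0.

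Between male fru- and female fru- cells no member was called by limma either, where 0.109% of tested genes were called, and Trh alone had an unadjusted p under 0.05, as did 4.99% of tested genes. Its log2 fold change was -0.86 (limma adjusted p = 0.867), and it hung on the female fru- libraries. Without female fru- replicate 1, when a single library stood for female fru- cells and its spread was taken from the other groups, the value was -1.42 (adjusted p = 0.0351). Without female fru- replicate 2 it was -0.30 (adjusted p = 0.752), and over all alternatives the adjusted p ran from 0.0351 to 1.00. All 5 receptors had higher means in male fru- than in female fru- cells, with log2 fold changes from 0.34 for 5-HT1B to 0.73 for 5-HT7 and adjusted p of at least 0.928. In the same comparison the median log2 fold change was 0.53 over the 4 neuronal markers and 0.64 over the 4 Kenyon cell markers, beside 0.43 over the receptors and 0.04 over all tested genes, and the part of the markers in the result was not tested. No member separated all 4 male from all 4 female libraries, in either direction, an arrangement that 2.1% of tested genes showed with males higher and 1.14% with males lower.

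The interaction of sex and fru status asked whether the difference between fru+ and fru- cells was itself different in males. It was called for 0 of 7 members, and 0% of tested genes were called by limma, with 0 members and 2.34% of genes at an unadjusted p under 0.05. The interaction was 0.19 for Trh (95% interval -0.75 to 1.14) and 0.07 for SerT (-0.73 to 0.87). With 2 libraries a group, these wide intervals do not exclude a sex difference of the fru contrast in either direction. For the receptors it ran from -0.53 for 5-HT7 to -0.08 for 5-HT2A.

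Trh needs a cofactor and further enzymes, and the 9 genes of synthesis and handling that serotonin shares with other amines were examined in the averaged comparison. Limma called 3 of 9 higher in fru+ cells and none lower, where 1.49% of all tested genes were called higher and 3.8% lower, with a list median of 0.15 against -0.12 over all tested genes. Vmat, the vesicular monoamine transporter, stood at 936 and 786 TPM in male fru+ and 1187 and 990 TPM in female fru+ cells, against 222 and 182 TPM in male fru- and 114 and 298 TPM in female fru- cells. All fru+ libraries were above all fru- libraries, and the averaged log2 fold change was 2.32 (SE 0.25, adjusted p = 0.00143), which was lost only without a filter on low values (adjusted p = 0.0586). Within a sex limma called Vmat higher in males (2.09, adjusted p = 0.0374) and females (2.55, adjusted p = 0.0131). Both calls were lost with sort session as a block (0.0948 and 0.0525), without a filter (0.238 and 0.171) and without the variance trend (0.134 and 0.0762). The male call was also lost with a pseudocount of 0.1 (0.0501), and the female call with only the compared libraries (0.192). Most fits that left out a library lost the male call, and a minority lost the female call. Over all such fits the log2 fold changes were 1.95 to 2.23 in males and 1.86 to 3.24 in females.

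The other called genes of this list make or restore the pterin cofactor of the hydroxylases. Pu, GTP cyclohydrolase, had 61.9 to 76.2 TPM in fru+ libraries against 43.0 to 44.1 TPM in fru- libraries, a log2 fold change of 0.64 (adjusted p = 0.0225). Its call was lost in 6 of the 8 fits that leave out a library and in the fit with no variance trend, with adjusted p up to 0.0974. Dhpr, dihydropteridine reductase, had 232 to 288 TPM in fru+ libraries against 146 to 168 TPM in fru- libraries, with a log2 fold change of 0.72 (adjusted p = 0.00668) that passed under every alternative fitted.

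Ddc, which makes serotonin from the product of Trh, did not follow them. It stood at 496 to 717 TPM in fru+ libraries and 574 to 649 TPM in fru- libraries, with an averaged log2 fold change of -0.02 (95% interval -0.31 to 0.27, limma adjusted p = 0.951). Of the remaining genes, the pterin genes pr, Sptr and Pcd had log2 fold changes of 0.15, 0.12 and 0.18, and AANAT1, an N-acetyltransferase that acts on amines, one of -0.32, none of them past the threshold. Hn, a phenylalanine hydroxylase that can also act on tryptophan, was at most 2.68 TPM in any library (log2 fold change -0.81, adjusted p = 0.244).

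Of 5 transcription factors of serotonergic neurons, 4 were tested and none was called by limma, with 1 at an unadjusted p under 0.05, as 23.5% of all tested genes were. That gene, en (engrailed), had 2.92 to 5.44 TPM in fru+ libraries against 0.790 to 1.5 TPM in fru- libraries, with a log2 fold change of 1.00 (adjusted p = 0.0687). The fru+ and fru- libraries of en did not overlap, an arrangement that 3.97% of tested genes showed with fru+ higher. Levels of en were low throughout. The log2 fold changes of hkb, tup and Lim1 were -0.30, -0.03 and -0.34. eg (eagle), which specifies serotonergic neurons in the embryo, was listed at 0 in 7 of 8 libraries and was not tested.

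Presynaptic and receptor genes of the other amines gave a point of comparison for Trh and SerT. All 4 presynaptic genes of dopamine, tyramine and octopamine neurons were called higher in fru+ cells in the averaged comparison, where 1.49% of all tested genes were, with a median log2 fold change of 1.71. They were Tdc2, tyrosine decarboxylase (2.31, adjusted p = 0.00629), ple, tyrosine hydroxylase (1.77, adjusted p = 0.0007), DAT, the dopamine transporter (1.64, adjusted p = 0.000679), and Tbh, tyramine beta-hydroxylase (1.29, adjusted p = 0.0088). Within a sex limma called 2 of 4 in males and 4 of 4 in females, and 1 of 4 and 2 of 4 with sort session as a block. The male count was 0 without a filter on low values, without the variance trend or when any of the 4 male libraries was left out, and the female count was 0 without a filter or with only the compared libraries and 1 without female fru+ replicate 2. Without a filter on low values the averaged calls of Tdc2 and Tbh were lost, as was that of Tbh without male fru+ replicate 2 (0.0510) or male fru- replicate 2 (0.0547). The values for Trh, 2.76, and SerT, 2.56, were above all 4, a difference that was not tested.

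Of 12 receptors for the other amines, 11 were tested and limma called none, with 2 at an unadjusted p under 0.05, beside 23.5% of all tested genes, and a median log2 fold change of -0.09. The lowest p belonged to Dop1R2, a dopamine receptor (-0.63, adjusted p = 0.0965), and Octbeta1R, an octopamine receptor (-0.41, adjusted p = 0.110). Of 10 genes of receptor signalling 1 was called, lower in fru+ cells as were 3.8% of all tested genes, with a median of -0.22. It was Galphai, the inhibitory G protein subunit, at 4.87 to 5.42 TPM in fru+ libraries against 7.97 to 20.1 TPM in fru- libraries (-1.27, adjusted p = 0.0358), a call lost under 4 changes of processing and in 7 of the 8 fits that leave out a library, with adjusted p up to 0.137. Galphas, the stimulatory subunit, had a log2 fold change of -0.37 and did not pass (adjusted p = 0.0695).

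**Figure D4:**
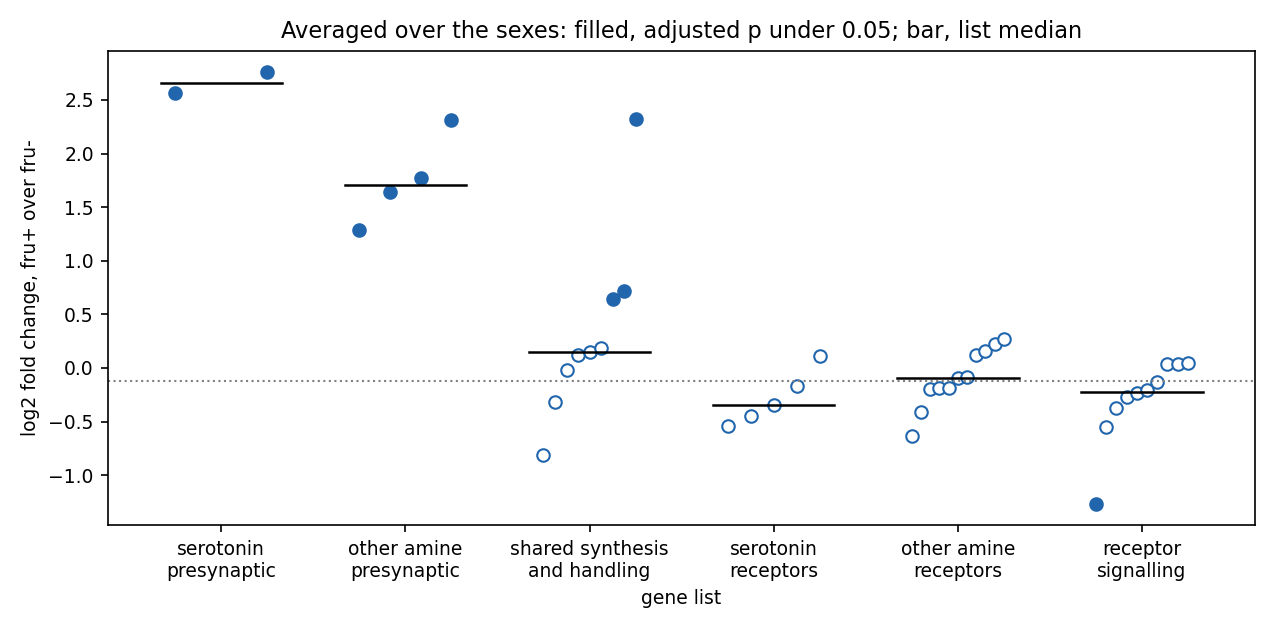
Averaged log2 fold changes, fru+ over fru- cells, of 6 gene lists. Each point is a gene, filled where the adjusted p is under 0.05, the bar is the list median and the dotted line is the median of all tested genes, -0.12. All called presynaptic genes, of serotonin and of the other amines, stand above every receptor plotted.

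To find the genes whose levels ran most like those of Trh and SerT, Pearson correlations of log2(TPM + 1) over the 8 libraries were ranked among 6539 genes with a mean of at least 10 TPM. The libraries share sessions and fall into fru+ and fru- groups, so a gene with a large difference between those groups ranks high, and the values are a description. SerT ranked the fourth for Trh (r = 0.980) and Trh the second for SerT. The other genes at the top for Trh were Proc (r = 0.984) and CCAP (0.982), which encode neuropeptides, Idh3a (0.982), a subunit of isocitrate dehydrogenase, and CG8401 (0.980). For SerT they were JhI-21 (0.990), which encodes an amino acid transporter, CCAP (0.979), Pu (0.973) and ple (0.972). Vmat ranked 12 for Trh and 9 for SerT, and fru ranked 9 and 6. Among the receptors, 5-HT1B had the most negative correlation with both, -0.88 with Trh and -0.90 with SerT.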

How the data were processed

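The authors trimmed paired reads from unstranded poly-A libraries with Trim Galore, aligned them to dm6 with HISAT2, kept unique reads above MAPQ 30, removed duplicates and ran StringTie 2.1.1 on each library. The deposited tables hold the TPM and FPKM made by the authors with StringTie and the coverage as mean reads per base. TPM of reference genes summed to 956415 to 985750. Assembled loci, listed beside them, were used only as an alternative, and aligned bases were taken from coverage over FPKM.

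Groups were compared with limma 3.58.1 (R 4.3.3) on log2(TPM + 1) of the deposited TPM, with a mean for each of 4 groups of 2 libraries, a variance trend and Benjamini-Hochberg adjustment. The fit was also run on simulated data with independent normal errors, an equal spread in every group and no session effect. That run cannot show how the fit handles shared sessions or unequal spreads. Alternatives were a pseudocount of 0.1, no filter, only genes above 10 TPM on average, median-of-ratios scaling, only the libraries compared, sort session as a block, no trend, FPKM, assembled loci and leaving out each library. The replicate number marks a shared sort session per the study's methods, and replicate differences correlated from -0.038 to 0.249 between groups. P-values measure the spread between these libraries.

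The members and gene lists were chosen with earlier results of these data known. Named were all members, the genes of the shared handling and transcription factor lists, up to 3 genes with the smallest p of other lists, and the 5 genes most correlated with Trh and with SerT. trh, CG13912 and eg were named after their values were seen. Sequences, splicing and chromatin accessibility were not analysed here.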

Additional observations from a re-analysis of the deposited data

How the results depend on the processing

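Averaged over the sexes, 2 of 7 members, Trh and SerT, were called under each of the 16 alternatives that could be fitted. In males 2 members were called, with 1 called without a filter on low values and 0 to 2 when a library was left out. In females 2 were called, with 0 without a filter, 0 in a fit to only the 4 libraries compared and 0 to 2 when a library was left out. Between male fru- and female fru- cells 0 to 1 were called when a library was left out. The remaining alternatives left the number of members called as it was. With the replicate block, which pairs libraries by sort session, 2 members were called in males, 2 in females and 2 averaged over the sexes, and the adjusted p of Trh was 0.0106, 0.0175 and 0.00114, so no member's call changed. The averaged and interaction comparisons draw on all 8 libraries, so no fit to fewer was made. Of 42 member comparisons, 13 changed sign under some alternative, each one a value that was not called. Over all genes the number called ran from 5 to 182 in males, from 0 to 236 in females, from 65 to 592 averaged over the sexes, from 5 to 19 between male fru+ and female fru+ cells, from 6 to 18 between male fru- and female fru- cells and from 0 to 2 for the interaction, beside 52, 66, 535, 9, 11 and 0. With 2 libraries a group and no counts, the 95% intervals of the receptors' averaged log2 fold changes reach from -1.19 for 5-HT2A to 0.56 for 5-HT2B, and a receptor that was not called is not shown to be unchanged. A group left with 1 library is assumed to vary like the others.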
